A study of Mus musculus with 4 samples.

Results

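The RNA described here came from mouse skin epidermal stem cells (EpSCs) that received only the vehicle. The series held 4 libraries from C57BL/6 EpSCs grown in EpiLife, a keratinocyte medium, with HKGS growth supplement. In the control group the cells were exposed to 0.06% DMSO for 48 h, and in the other group to ALP, an Arctium lappa L. polysaccharide, at 30 μg/mL for 48 h. The control group was chosen by its labelled treatment and its columns in the deposited table, which gave 2 of the 4 libraries. No value of the ALP group entered any result. The labels do not say how stem cells were selected from the skin, how many animals gave cells, or whether the libraries came from separate cultures. The spread between them may therefore be technical. The columns' replicate numbers could not be tied to single labelled samples, so the libraries are called A and B, names that carry no order. Library A held 17415047 counts over 54532 genes and library B 17360445. Levels are given as CPM, the counts scaled to a library total of 1000000, or as TPM, the counts per length scaled to the same total, and genes are compared with each other on the TPM scale. CPM serve for ratios between the libraries and for sums over a gene and its sequence copies. A gene was called detected at 1 TPM or more in both libraries.

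The epidermis is renewed by keratinocytes of its basal layer, which divide while attached to the basement membrane through integrins and hemidesmosomes. These cells build their intermediate filaments from keratin 5 and keratin 14, and the transcription factor p63 maintains their identity. When they leave the basal layer they replace this keratin pair with keratin 1 and keratin 10 and later make the proteins of the cornified envelope. Keratin 6, keratin 16 and keratin 17 are sparse in resting interfollicular epidermis and are made in wounds, in hair follicles and in culture.

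Among genes of at least 300 bases, the basal keratin pair had the highest levels in the vehicle cultures. Krt14, on chr11:100203162-100207548 of GRCm38, stood at 34314 TPM in library A and 34741 in library B. Krt5, on chr15:101707070-101712898, stood at 30725 and 30763 TPM. Both libraries gave the same order, with Krt14 over Krt5. Together they took 4.08% of all counts in A (exact Clopper-Pearson 95% interval 4.07 to 4.09) and 4.07% in B (4.06 to 4.08), and all 53 annotated keratin genes took 5.50% and 5.51%. Such intervals cover counting error only. The 10 genes with the most counts held 9.40% and 9.24% of the libraries, the first 100 held 22.9% and 22.7%, and the first 1000 genes held 53.1% and 53.1%. Of 54532 genes, 31405 had no count in either library and 13544 were detected. Protein-coding genes made up 11387 of the detected genes, which is 51.7% of the 22046 protein-coding genes in the table, and the detection counts below are read against that share. The median level of a detected protein-coding gene was 23.1 TPM, with quartiles of 9.17 and 54.4, and 92 genes stood at 1000 TPM or more. Over all protein-coding genes the median was 1.76 TPM.

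Behind the keratin pair, the 25 highest nuclear genes of at least 300 bases mixed the protein synthesis machinery with epithelial genes. The elongation factor gene Eef1a1 followed, at 13884 and 12997 TPM. Krt17 (9290 and 10787 TPM) and Stfa3 (9827 and 8220 TPM), which encodes a stefin-type cysteine protease inhibitor, changed places between the libraries. The calcium-binding S100a11 reached 5753 and 6671 TPM. Sfn, which encodes the keratinocyte 14-3-3 protein stratifin, reached 4983 and 5903 TPM. The desmosomal p63 target Perp had 4763 and 4420 TPM. Krt6a (4373 and 4725 TPM) and Krt16 (4397 and 4201 TPM), the keratins of activated epidermis, lay next to it. Col17a1, the transmembrane collagen of the hemidesmosome, had 3095 and 3108 TPM, and the galectin gene Lgals7 had 3309 and 2869. The remainder were Eef2, Fth1, Hsp90ab1, Actg1, Cd24a, the stefin-region gene BC100530 and the ribosomal protein genes Rplp1, Rplp0, Rps3a1, Rps2, Rpl4, Rpl41 and Rps15. None of the 25 was 1.5-fold apart between the libraries. Over all genes at 5 CPM or more that share was only 1.23%, so this does not set the 25 apart. The widest ratio among them was that of BC100530, with 3299 TPM in A and 2595 in B.

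**Figure D1:**
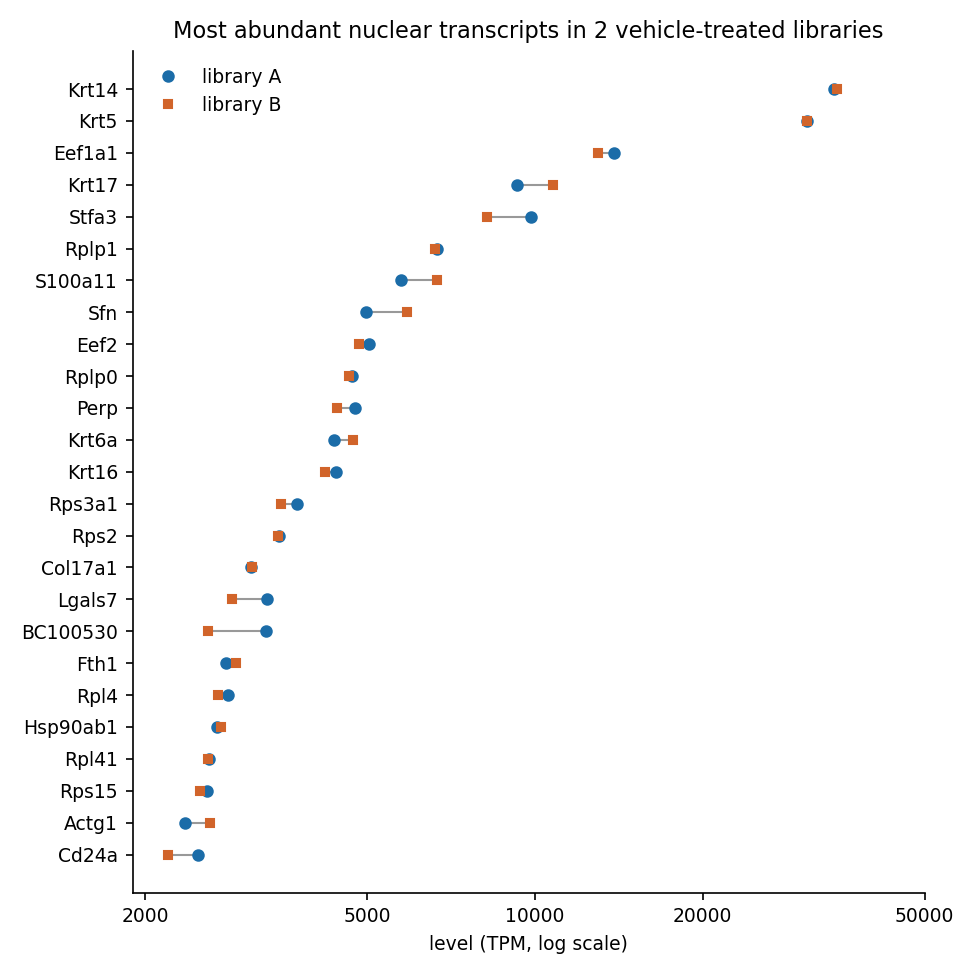
Levels of the 25 most abundant nuclear genes of at least 300 bases in library A (circles) and library B (squares), in TPM on a log axis, with a grey line joining the libraries. Krt14 and Krt5 stand apart at the top, at 34314 and 30725 TPM in library A, and Krt17 and Stfa3 change places between the libraries.

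The markers of the basal layer were all present. All 20 basal keratinocyte genes examined were detected, with a median of 394.7 TPM. Trp63, the gene of p63, had 213 and 204 TPM and had rank 9 among 1451 genes that the table assigns to a transcription factor family, of which 846 were detected. Itga6, the integrin alpha chain of the hemidesmosome, had 326 and 329.8 TPM, and its partner Itgb4 had 349 and 412. With the length of the longest coding transcript the mean of Itga6 was 519 TPM instead of 328. The integrin beta chain gene Itgb1 was high as well, at 691 and 808 TPM. Krt15, a keratin of basal and follicle stem cells, had 452 and 363 TPM, far under its family members Krt5 and Krt14. Ly6d, a surface protein of stratified epithelia, stood at 2109 and 1872 TPM.

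Genes used to tell epidermal and follicle stem cell compartments apart were low to moderate, with 14 of 20 detected and a median of 6.31 TPM. Sox9, the follicle stem cell factor, was highest with 98.8 and 107 TPM. Plet1, a marker of the upper follicle, had 81.2 and 93.4 TPM. Lrig1, which marks the junctional zone and restrains EGF receptor signalling, had 56.6 TPM in A and 86.0 in B and was the only gene over 1.5-fold apart among the 12 members at 5 CPM or more. Bmi1 stood at 36.9 and 35.2 TPM, Tbx1 at 33.2 and 29.5, and the follicle factor Lhx2 at 18.3 and 19.2. Lgr5, which marks cycling follicle stem cells, was low at 4.03 and 3.44 TPM. Lgr6 fell under the detection level with 0.867 and 0.824 TPM. The bulge marker Cd34 had no count in A and 5 counts in B, and Krt24 had no count in either library. A count of 0 allowed up to 0.172 CPM in A and 0.173 CPM in B, taking 3 counts as the limit.

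Suprabasal genes were present beside the basal program, and 23 of 28 differentiation genes were detected with a median of 16.5 TPM. Krt1 had 1807 and 1507 TPM and Krt10 had 1006 and 822, so the suprabasal keratin pair lay far under the basal pair in both libraries. Krtdap followed at 594 and 521 TPM, and the cornified envelope precursor gene Sprr1a had 254 and 200.2. The desmosomal cadherin Dsg1a had 147 and 115 TPM. Lor, Ivl and Flg were lower than these genes. Lor, the gene of the envelope protein loricrin, had 49.6 and 46.1 TPM, and Ivl, the gene of involucrin, had 8.33 and 7.77. Flg, the gene of the granular layer protein filaggrin, had 1.07 and 0.803 TPM. The deposited length of Flg is 18829 bases and that of its longest protein-coding transcript 1488, and with the latter its mean level was 8.96 TPM instead of 0.937. In bulk RNA, fewer cells of a type and less RNA per cell cannot be told apart, here and for each marker below.

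Of 16 keratins of wounds, appendages and simple epithelia, 9 were detected, with a median of 2.12 TPM that hid a wide range. Krt17, Krt6a, Krt16 and Krt6b (577 and 570.3 TPM) were high, and Krt80 had 49.7 and 50.4 TPM. Krt6b shares 972 windows of 50 bases with Krt6a, and Krt16 shares 188 with Krt14. The part of shared sequence in these levels was not tested. The simple epithelial pair was near the detection level, with Krt8 at 1.84 and 6.51 TPM and Krt18 at 2.63 and 3.55. Krt20, the Merkel cell keratin, had 0.280 and 0.189 TPM.

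Defining genes of other skin cell types were mostly under the detection level. No count in either library was found for 6 of 14 leukocyte, 1 of 10 Merkel and Schwann cell and 2 of 10 endothelial genes. Of all 22046 protein-coding genes, 15438 had a count in at least 1 library. None of 14 leukocyte genes was detected, the highest being Cd74 at 0.511 and 1.81 TPM. Cd3e had no count in either library and Ptprc had 1 count in A. None of 10 Merkel and Schwann cell genes was detected. Of 10 endothelial genes 2 were detected, Pecam1 at 2.02 and 2.84 TPM and Egfl7 at 2.16 and 2.24. Of 12 sebocyte and adipocyte genes only Soat1, the gene of a cholesterol-esterifying enzyme, was detected, at 4.45 and 4.78 TPM. Fibroblast genes gave 3 of 12, namely Fbln1 (56.5 and 54.4 TPM), Dcn (7.15 and 4.68) and Thy1 (1.68 and 2.07). The fibroblast collagen gene Col1a1 stood at 0.795 and 1.03 TPM and Vim, the mesenchymal filament gene, at 4.06 and 5.34. Among 8 smooth muscle and myofibroblast genes, Acta2 reached 183 ± 24.2 TPM (SD, n = 2) and was higher in B, while the contractile genes Cnn1 and Lmod1 had at most 1.18 TPM in a library. Tagln, at 1.36 and 1.10 TPM, was the other detected gene of that list.

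Of 10 melanocyte genes 6 were detected, with no member at 0 in both libraries and a median of 3.62 TPM. Pmel, which forms the fibrils of the pigment granule, had 28.9 and 26.5 TPM. The pigment enzyme gene Tyrp1 had 23.5 and 21.1 TPM, Dct had 8.58 and 8.59, Mlana 8.67 and 10.2, and the lineage factor Mitf 5.78 and 5.41. These values were alike in both libraries. The summed level of the list was 0.00798% of counts in A and 0.00714% in B.

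**Figure D2:**
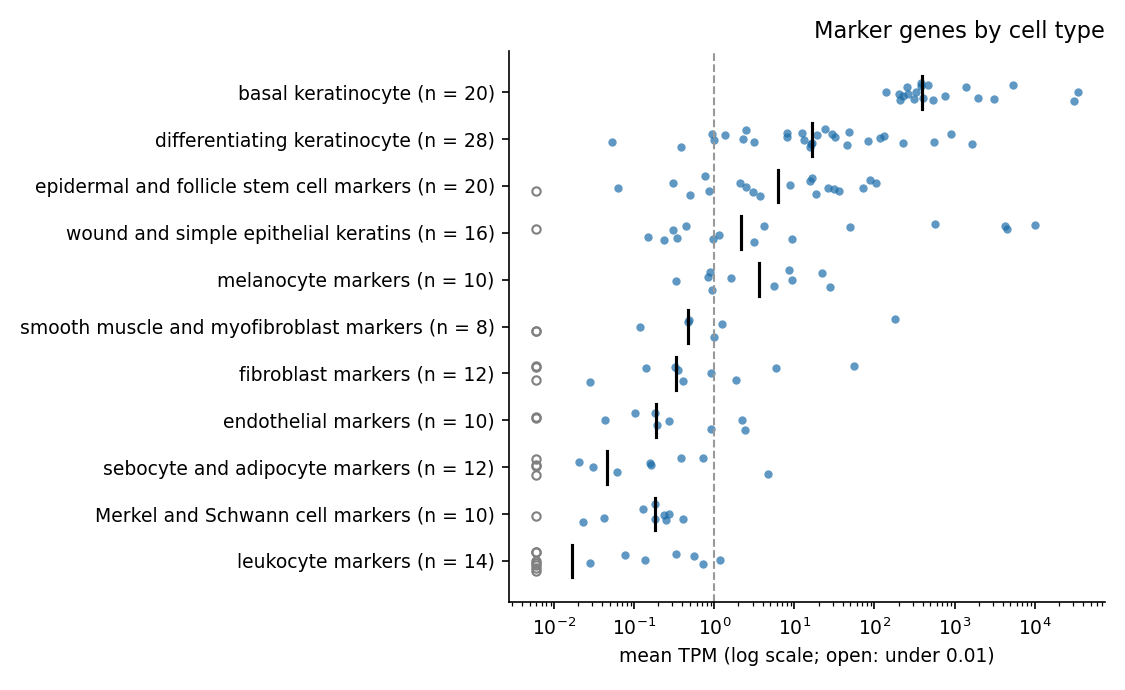
Mean TPM of the 2 vehicle libraries for each marker gene (points, log axis), by list, with a vertical bar at each list's median and a dashed line at 1 TPM. Open points are genes under 0.01 TPM. The basal list lies wholly over 100 TPM, melanocyte genes reach 27.7 TPM, and the leukocyte list stays near or under 1 TPM.

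Of 36 epidermal transcription factor genes 35 were detected, with a median of 52.0 TPM. The AP-1 subunit genes Junb (247 and 255 TPM) and Jun (143 and 157) were near the top. Myc, the growth regulator, stood at 64.5 and 63.2 TPM. None of the 34 at 5 CPM or more was 1.5-fold apart between the libraries. Over all genes at that level the share was only 1.23%, so this does not set the list apart.

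Genes of DNA replication and mitosis were all detected (27 of 27), with a median of 64.8 TPM. The sliding clamp gene Pcna had 161 and 169 TPM. Mki67, whose protein coats mitotic chromosomes, had 143 and 138 TPM, and the topoisomerase gene Top2a had 138 and 141. The ribonucleotide reductase gene Rrm2 (135 and 165 TPM) and the cyclin gene Ccnb2 (134 and 147) were higher in B. All 12 genes of D cyclins, their kinases and CDK inhibitors were detected too, at a median of 38.2 TPM. Among D cyclins the most abundant was Ccnd2 (177 and 206 TPM) and not Ccnd1 (40.4 and 49.3 TPM). The CDK inhibitor gene Cdkn1a had 252 and 261 TPM, more than the kinase gene Cdk4 with 142 and 162. Cdkn1b had 79.9 and 68.8 TPM, and Cdkn2b, a target of TGF-beta signalling, had 60.5 and 76.0.

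Receptors through which keratinocytes receive growth signals were broadly present. Of 37 receptor tyrosine kinase genes 26 were detected, at a median of 26.7 TPM. The collagen receptor gene Ddr1 led with 324 and 315 TPM, followed by the Wnt co-receptor gene Ryk with 279.8 and 286. Axl, a receptor for Gas6, had 238 and 295 TPM, and Fgfr2, whose keratinocyte isoform binds Fgf7 and Fgf10, had 145 and 131. In the EGF receptor family the order was Erbb3 (95.7 and 84.6 TPM), Erbb2 (74.6 and 76.0) and Egfr (43.4 and 42.7) in both libraries. Ligands were lower as a group, with 27 of 38 growth factor genes detected at a median of 8.25 TPM. Wnt4 had 287 and 305 TPM, Wnt10a 224 and 262, and the Notch ligand genes Jag2 and Jag1 had 165 and 162 TPM and 141 and 179.7. Pdgfb, which encodes a mitogen of mesenchymal cells, had 88.9 and 127 TPM.

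Of 29 receptors for TGF-beta, BMP, Notch, Wnt and Hedgehog signals 26 were detected, with a median of 33.4 TPM. The frizzled receptor gene Fzd6 was highest at 229 and 219 TPM, and the Hedgehog transducer gene Smo had 109 and 115. Bmpr1a (113 and 105 TPM), Notch1 (101 and 95.9), Acvr1b (97.2 and 95.7) and Tgfbr2 (89.6 and 101) lay within a narrow band, and their order changed between the libraries. None of the 26 genes of this list at 5 CPM or more was 1.5-fold apart. Over all genes at that level the share was only 1.23%, so this does not set the list apart.

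Immune receptor lists differed in how many members were detected. Of 42 cytokine and chemokine receptor genes 31 were detected, with a median of 14.7 TPM. Il6st, the gene of the shared signalling chain gp130, had 293 and 262 TPM. The interleukin 17 receptor subunit gene Il17rc had 146 and 152 TPM, Tnfrsf12a 104 and 135, Tnfrsf1a 102 and 102, and Il13ra1 77.0 and 63.7. Of 27 pattern recognition receptor genes 11 were detected and 7 had no count, and the median was 0.423 TPM. The highest were the muramyl dipeptide sensor gene Nod2 with 29.8 and 27.7 TPM and the RNA sensor gene Ddx58 with 13.7 and 16.4. Nod1 had 11.3 and 9.18 TPM, Ifih1 8.84 and 9.995, and Tlr2 6.99 and 10.4. At 11 of 27, detection lay under the 51.7% of all protein-coding genes, and for cytokine receptors it lay over it.

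G protein-coupled receptors gave 22 of 43 detected, a share close to that of all protein-coding genes, with a median of 1.26 TPM. The protease-activated receptor gene F2rl1 had 117 and 160.3 TPM, and the planar polarity gene Celsr1 100.1 and 105. Celsr2 had 46.1 and 41.5 TPM. Of 33 nuclear receptor genes counted with Ahr, 20 were detected at a median of 3.503 TPM. The retinoid receptors Rxra (249 and 241 TPM) and Rarg (176 and 172) stood over Esrra (93.6 and 89.2), the vitamin D receptor gene Vdr (84.7 and 81.8) and Nr1h2 (81.3 and 78.8), in this order in both libraries.

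Integrin transcripts came mainly from a small set of genes. Of 26 integrin genes 12 were detected, with a median of 1.04 TPM. Itgb1 led, followed by Itgb4, Itga6, Itga3 (227 and 287 TPM) and Itgb6 (164 and 188). Itgax, an integrin gene of leukocytes, had no count in either library. Of 28 laminin and basement membrane genes 21 were detected at a median of 50.4 TPM, and the list took 1.72% of counts in A and 1.91% in B. The laminin chain genes Lama3 and Lamb3 had 449.7 and 489 TPM and 515 and 559.8 TPM. Col18a1, a basement membrane collagen, had 473 and 627 TPM. The list of interstitial and other collagens was different, with 6 of 21 detected and a median of 0.456 TPM. Col12a1 had 90.01 and 84.9 TPM, Col16a1 53.1 and 58.9, and Col8a1 38.1 and 58.9.

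Matricellular and provisional matrix genes gave 24 of 33 detected, with a median of 11.4 TPM. The syndecan gene Sdc1 had 860.1 and 968 TPM and Tgfbi, an integrin-binding matrix protein, had 647 and 574. Thbs1 (249.5 and 369 TPM), Cyr61 (145 and 233) and the fibronectin gene Fn1 (68.2 and 100.1) were higher in B, while the hyaluronan receptor gene Cd44 had 214 and 245. Proteases, inhibitors and collagen-modifying enzymes gave 34 of 41 detected, at a median of 14.4 TPM, or 22.4 with the length of the longest coding transcript. The serpin genes Serpinb5 (786 and 745 TPM) and Serpinb2 (368 and 382) were near the top with P4hb (701 and 749.8) and the collagen chaperone gene Serpinh1 (469.7 and 535). The plasminogen activator gene Plau had 184 and 229.5 TPM. Cell junction genes had the highest median of the adhesion lists, 158 TPM, with 25 of 28 detected. After Perp came the desmosome genes Dsp (2303 and 2157 TPM), Pkp1 (1620 and 1564), Jup (1019 and 1004) and Dsc3 (831 and 757).

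Among 48 genes of cytokines, chemokines and antimicrobial proteins 29 were detected, with a median of 2.40 TPM. The S100 genes led, with S100a11 given above, S100a10 at 1785 and 2185 TPM and S100a6 at 893 and 984. Mif, a constitutively made cytokine, had 1170 and 1180 TPM. The chemokine gene Cxcl14 had 519 and 441 TPM. Il6, Il19 and Il20 had no count in either library.

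**Figure D3:**
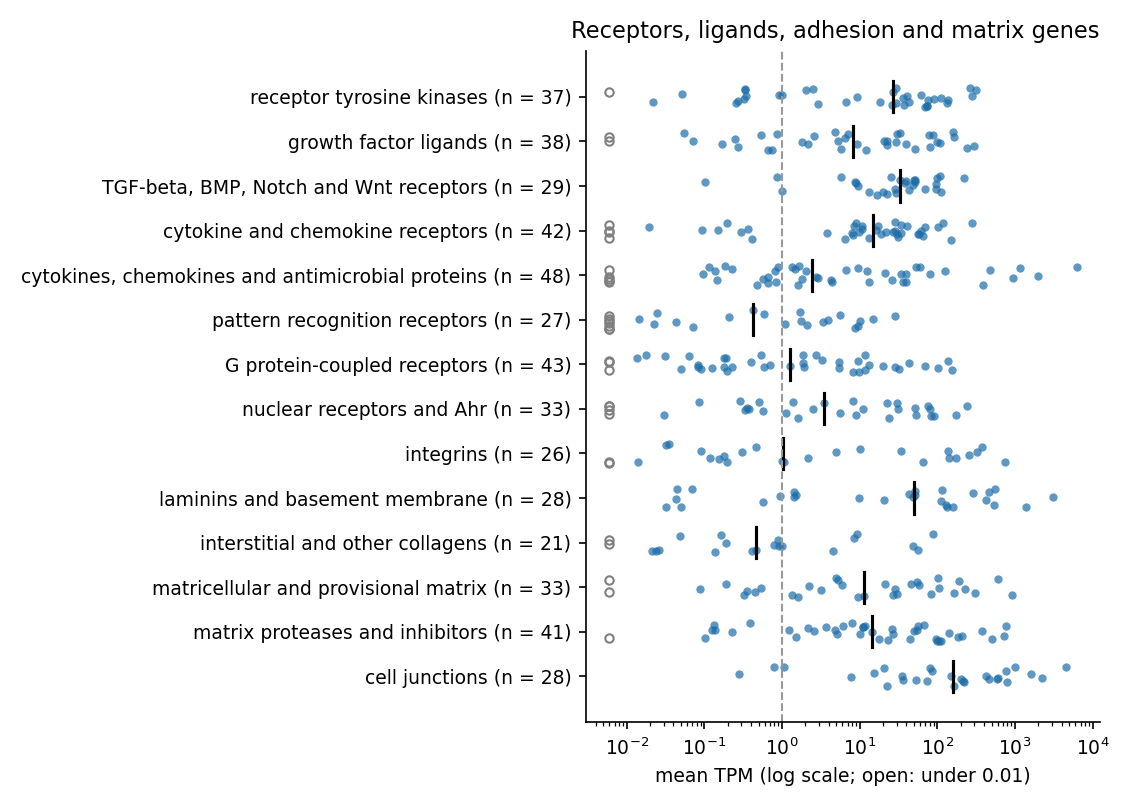
Mean TPM of the 2 vehicle libraries for genes of receptors, ligands, adhesion and matrix (points, log axis), by list, with a vertical bar at each list's median and a dashed line at 1 TPM. Open points are genes under 0.01 TPM. Medians run from 0.423 TPM for pattern recognition receptors to 158 TPM for cell junctions.

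All 78 cytosolic ribosomal protein genes were detected, at a median of 836 TPM, which was 1302 with the length of the longest coding transcript, and they took 4.71% of counts in A and 4.58% in B. Rplp1 was highest with 6676 and 6613 TPM. The lowest were Rpl24 with 1.22 and 1.42 TPM and Rps10 with 3.504 and 3.31. Of the 50-base windows of Rpl24, 81.7% also occur in transcripts of other genes, and for Rps10 30.8%. Across the 78 genes, the level and the shared share had a Spearman rho of 0.203, and the level and gene length one of -0.488, as descriptions over genes of the same libraries. The 16 genes with under 25% of windows shared had a median of 496 TPM, and the 36 with 25% to 50% one of 820.5. The median was 1167 for the 16 genes with 50% to 75% shared and 957 for the 9 with 75% to 90%. The 1 gene with over 90% shared had 612.8 TPM. Glycolysis genes were all detected (20 of 20), at a median of 75.3 TPM and from 2.97 to 1320.2 TPM. Pkm had 1275 and 1365 TPM, Aldoa 943 and 926, Pgk1 883 and 839, Eno1 670.4 and 708, and Ldha 644 and 648. Gapdh had only 5.88 and 6.92 TPM. It shares 58.4% of its 50-base windows with other genes, and the 115 genes that share at least 50 of them summed with Gapdh to 152 CPM in A and 143 in B. The sources used here do not say how multi-mapping reads were treated, and its part in these levels was not tested.

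The 13 mitochondrial mRNAs had a median of 1856 TPM and took 2.22% of counts in A and 2.07% in B. The respiratory chain genes mt-Co1 (21800 and 20786 TPM), mt-Nd1 (9521 and 9123), mt-Cytb (9082 and 8324), mt-Nd2 (4474 and 4261) and mt-Nd5 (3151 and 2896) were highest. At most 62.2% of their windows, or of those of mt-Nd4 and mt-Nd6, were shared. mt-Co2, mt-Co3, mt-Atp6, mt-Nd3 and mt-Nd4l share between 98.0% and 100% of their windows with transcripts of other genes, and their levels ran from 63.6 to 502.5 TPM. mt-Atp8, with 0% of windows shared, was lower still at 4.41 and 1.79 TPM. Of the 13 mRNAs, 12 had a mean of 5 CPM or more, all but mt-Atp8, whose level rests on few counts. mt-Co2, a subunit of the same enzyme as mt-Co1, had 502.5 and 357 TPM and is shown because its 681 bases aligned with the nuclear pseudogene Gm28661 (chr1:24614885-24615565, minus strand) hold 0 differences. Summed with the 2 genes that share at least 50 of its windows, mt-Co2 had 173 CPM in A and 131 in B, of which 110 and 77.2 were its own. The first 120 of its 684 bases, from the GENCODE M21 transcripts on GRCm38 (chrM:7013-7696, plus strand), run as follows.
mt-Co2: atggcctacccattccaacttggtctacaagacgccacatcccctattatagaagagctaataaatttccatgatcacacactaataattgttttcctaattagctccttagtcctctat

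**Figure D4:**
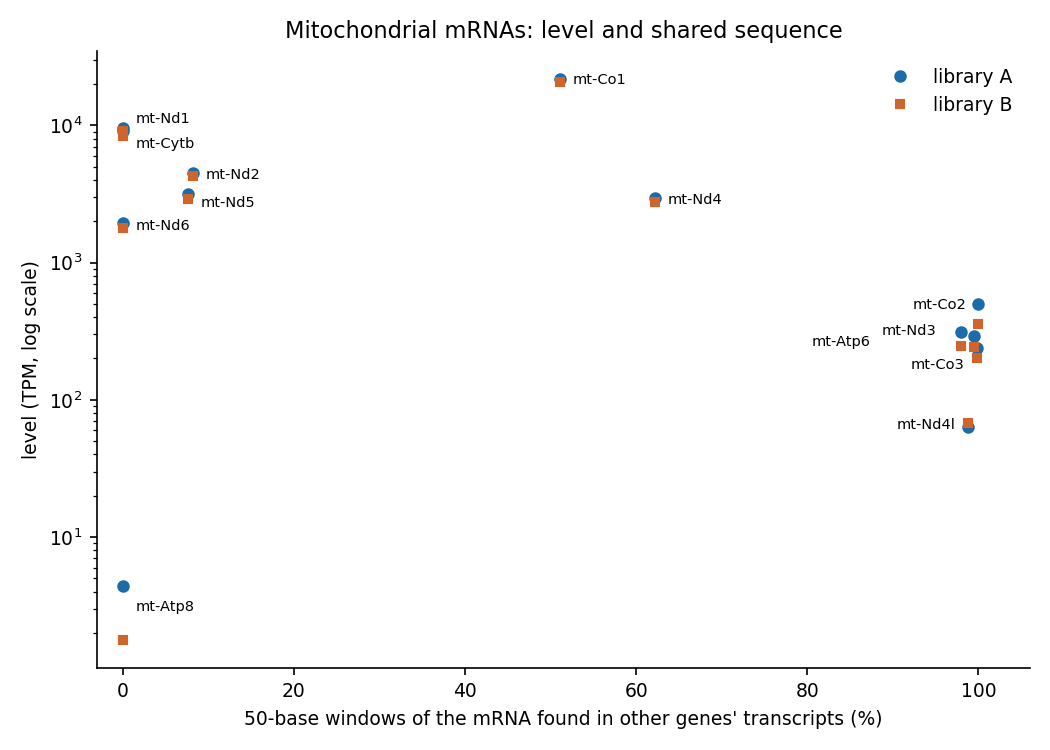
Levels of the 13 mitochondrial mRNAs in library A (circles) and library B (squares), in TPM on a log axis, against the percentage of their 50-base windows found in transcripts of other genes. The 5 mRNAs at 98.0% to 100% lie between 63.6 and 502.5 TPM. The lowest is mt-Atp8 at 0%, with a mean under 5 CPM.

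By biotype, 98.2% of counts in A (98.21 to 98.22) and 98.4% in B (98.37 to 98.38) fell on protein-coding genes. Processed pseudogenes took 0.637% and 0.613%, and long intergenic RNAs 0.393% and 0.338%. Per length the picture differed, since protein-coding genes held 89.3% and 90.2% of TPM. The largest single part of the rest was 1 short gene, Gm23935, annotated as a miRNA of 57 bases on chr16:11144125-11144181 (plus strand) with 915 and 810 CPM. After division by this short length it had the highest TPM of the table, 50321 and 44921, ahead of Krt14. By counts it lay far under Krt14, which had 19250 and 19312 CPM, so its rank by TPM rests on its length. Its sequence is printed because 73.7% of it is G or C and because Gm24245 and Gm24270 carry the identical bases, with 0 CPM and at most 4.67 CPM.
Gm23935: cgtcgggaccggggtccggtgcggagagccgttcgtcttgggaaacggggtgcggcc

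The 10 most abundant nuclear non-coding genes of at least 300 bases were 9 pseudogenes and the ribosomal RNA gene CT010467.1 (1036 and 880.1 TPM). Gm10123, with 1615 and 1580 TPM, shares all of its 50-base windows with other genes and most of them with Ppia, the cyclophilin A gene. Gm9794 had 1231 and 1155 TPM and its closest gene was Rpl23. Rps16-ps2 (998 and 877 TPM), Gm10275 (849 and 873, closest to Rpl12), Rps10-ps2 (775 and 767), Gm15427 (633 and 586) and Tpt1-ps3 (619 and 579) were of the same kind, as were Rpl17-ps10 (852 and 1438) and Rpl17-ps3 (908 and 719.8). For these 9 pseudogenes between 76.7% and 100% of windows were shared. Rps10-ps2 thus stood far over Rps10 itself, which had 3.504 and 3.31 TPM.

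The libraries were close to each other. Of 10380 genes at a mean of 5 CPM or more, 128 (1.23%) were at least 1.5-fold apart on TMM-scaled CPM, 35 higher in A and 93 higher in B. The SD of the log2 ratio over these genes was 0.187, and the common biological coefficient of variation was 0.0703. With 1 library on each side there is no test of a difference between them, and 95% counting intervals of the ratio follow from an exact binomial on the counts. By those intervals 1448 genes (13.9%) lay over equality in A and 1761 (17.0%) in B. By list, 4 of 29 proteases and inhibitors and 2 of 6 interstitial and other collagens were 1.5-fold apart. So were 2 of 22 matricellular genes, 2 of 22 growth factor ligands, 2 of 18 cytokines and antimicrobial proteins, 2 of 25 junction genes and 3 of 76 ribosomal protein genes. Stem cell markers, cytokine receptors, G protein-coupled receptors and fibroblast markers held 1 each, and the other lists none.

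Some gene lists leaned the same way between the libraries although single ratios were small. Differentiation genes were higher in A for 17 of 17 members at 5 CPM or more, against 48.2% of all genes, with a median log2 ratio of 0.29 and 13 intervals over equality. Krt1, Krt10 and Sprr1a had log2 ratios of 0.26, 0.29 and 0.35. Several lists had more members higher in B. Matricellular genes were higher in A for 5 of 22 (median -0.21), integrins for 2 of 11 (-0.22) and basement membrane genes for 5 of 19 (-0.12). Proteases and inhibitors were higher in A for 9 of 29 (-0.15), and interstitial and other collagens for 1 of 6 (-0.21). Growth factor ligands were higher in A for 3 of 22 (-0.16), D cyclin and CDK inhibitor genes for 1 of 10 (-0.16), and replication and mitosis genes for 5 of 27 (-0.13). Scaling by library totals or by median-of-ratios size factors moved none of these counts by more than 1 gene. Basal keratinocyte genes were higher in A for 5 of 20 (median -0.04), which became 9 of 20 with size factors. Ribosomal protein genes were higher in A for 54 of 76, or 61 of 76 with size factors, and mitochondrial mRNAs for 11 of 12.

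In the other lists with 5 or more members at this level, the genes higher in A were 22 of 34 transcription factors, 14 of 26 receptor tyrosine kinases, 15 of 26 TGF-beta, BMP, Notch and Wnt receptors, 17 of 30 cytokine receptors, 14 of 18 nuclear receptors, 12 of 25 junction genes and 11 of 19 glycolysis genes. Stem cell markers gave 7 of 12, cytokines and antimicrobial proteins 9 of 18, pattern recognition receptors 3 of 6, wound and simple epithelial keratins 2 of 6 and G protein-coupled receptors 5 of 18. Sex-linked transcripts gave 4 of 5. The median ratio also moved with gene length, from -0.03 in the shortest quartile of protein-coding genes to 0.03 in the longest, and its part in these values was not tested.

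**Figure D5:**
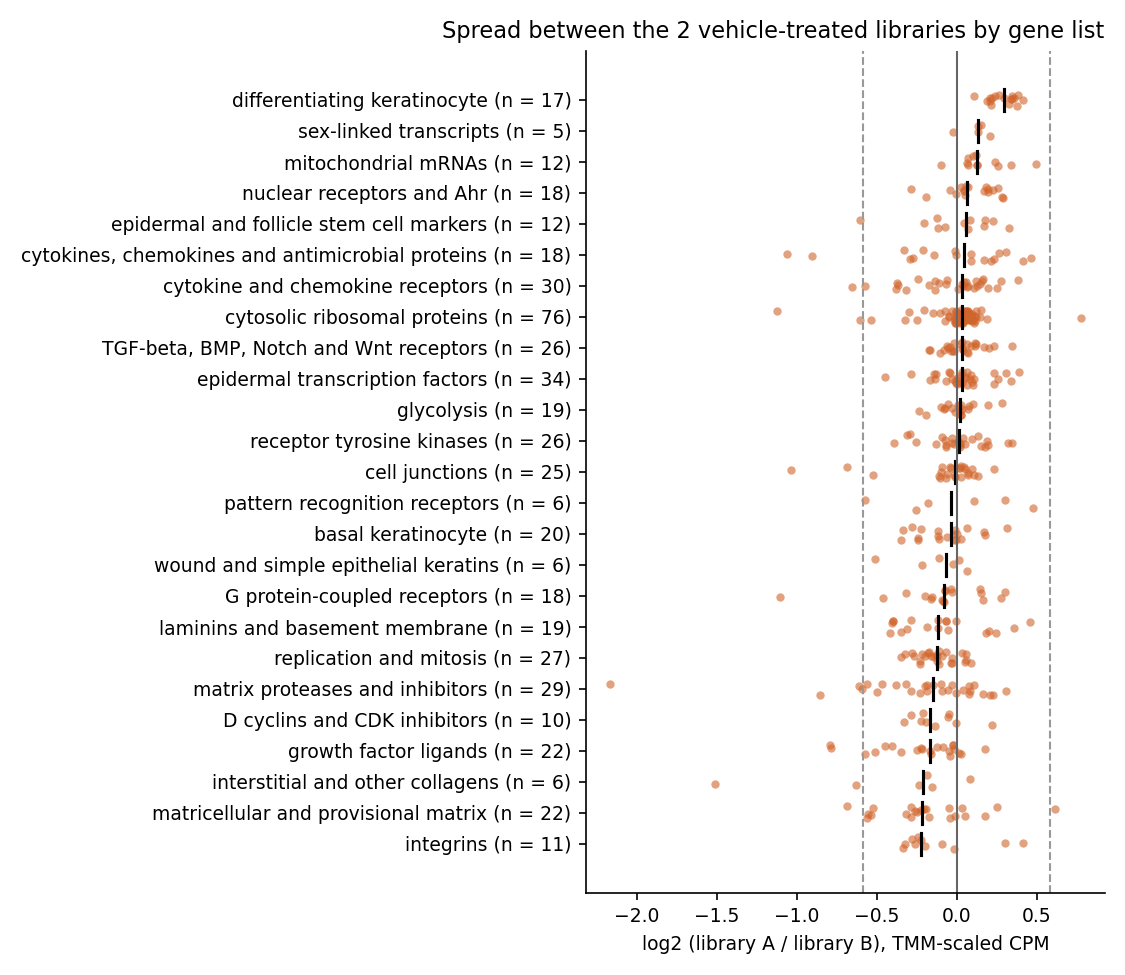
Log2 ratio of library A to library B on TMM-scaled CPM for list members at a mean of 5 CPM or more (points), with a black bar at each list's median and dashed lines at 1.5-fold. All 17 differentiation genes lie right of 0, and integrins, matricellular genes and collagens have medians under -0.2.

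The 6 genes at the low end of the ratios had more RNA in B. Adamts4, a gene of a proteoglycan-cleaving protease, had 2.07 CPM in A and 9.22 in B, a 4.50-fold difference (log2 interval -2.73 to -1.64). Col5a3, a fibrillar collagen gene, had 9.59 and 27.1 CPM. Csf1, the gene of the macrophage growth factor, had 37.0 and 76.4 CPM, and Gprc5a, a retinoid-induced receptor gene, had 4.02 and 8.58. None of these had more than 2.57% of its windows shared with other genes. Rps27a (167.5 and 362 CPM), which encodes a ubiquitin and ribosomal protein fusion, shared 62.4%, and Sumo2 (8.56 and 26.6 CPM) shared 29.1%. Summed with the genes that share at least 50 of their windows, Rps27a had 210.5 and 397 CPM, 1.88-fold more in B, and Sumo2 31.2 and 46.5 CPM, 1.49-fold more in B.

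Among the 6 genes at the high end, with more RNA in A, 3 had a close copy. Rps27rt had 138 CPM in A and 47.0 in B, a 2.92-fold difference, whereas Rps27 had 223 and 275.5, and their sum was 361 and 323 CPM. Rsph3a had 15.5 and 6.39 CPM and Rsph3b 14.8 and 19.2, with sums of 30.3 and 25.6. Ppih, which encodes a cyclophilin of the spliceosome, had 11.8 and 4.84 CPM, while its copy Gm7879 had 1.90 and 4.03, and Ppih with all 7 genes that share at least 50 windows summed to 19.9 and 18.0. Nsun6 (9.59 and 4.55 CPM), with 0% of windows shared, Clec2g (7.98 and 4.21) and Ndufb2 (7.64 and 4.09) completed the group. Clec2g had the same values when summed with the 1 gene that shares at least 50 of its windows. Ndufb2 with its 2 such genes summed to 72.35 and 66.82 CPM, of which Braf gave 64.71 and 62.73. Of the 128 genes 1.5-fold apart, 17.2% shared at least 50% of their windows, compared with 4.46% of the other genes at this level. Rpl17 and its pseudogene Rpl17-ps10 differed in opposite directions. They had 245 and 142 CPM, and 151 and 252 CPM, with sums of 396 and 394.

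Coding bases of Rps27 and Ppih are set beside those of a copy here, without the untranslated bases. The part of shared sequence in the ratios between the libraries was not tested. The coding sequence of Rps27 (transcript on chr3:90212671-90213651, minus strand, GRCm38, GENCODE M21) holds 255 bases, and that of Rps27rt (chr9:114982366-114982739, minus strand) differs from it at 0 positions. It is printed once, with the start and stop codons in capitals.
Rps27: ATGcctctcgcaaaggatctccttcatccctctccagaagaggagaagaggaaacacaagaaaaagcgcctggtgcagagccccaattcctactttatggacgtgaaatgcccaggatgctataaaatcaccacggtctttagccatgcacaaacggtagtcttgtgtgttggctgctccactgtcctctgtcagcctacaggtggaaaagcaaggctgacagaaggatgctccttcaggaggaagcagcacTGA

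Between the 534 coding bases of Ppih (chr4:119300010-119320484, minus strand) and Gm7879 (chr5:43913144-43913917, plus strand) there is 1 difference, A84G, counted from the first coding base of Ppih. The first 120 bases are given with that base in capitals.
Ppih: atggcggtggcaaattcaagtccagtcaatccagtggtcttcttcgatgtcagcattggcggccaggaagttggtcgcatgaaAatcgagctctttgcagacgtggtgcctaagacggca
Gm7879: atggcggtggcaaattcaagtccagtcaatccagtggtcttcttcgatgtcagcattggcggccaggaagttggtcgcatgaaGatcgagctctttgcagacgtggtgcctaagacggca
At all other aligned positions the coding bases are the same.

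Transcripts of both sex chromosomes were present. Xist, which is made from the inactive X chromosome of females, had 78.4 and 71.5 TPM. The Y-linked genes Ddx3y (26.2 and 23.5 TPM), Eif2s3y (25.8 and 22.3), Uty (7.65 and 6.98) and Kdm5d (4.55 and 4.63) were detected as well. Of the 6 sex-linked transcripts examined 5 were detected, in similar amounts in both libraries.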

How the data were processed

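RNA sequencing of 2 libraries of vehicle-treated mouse EpSCs was analysed. Total RNA was extracted with TRIzol and libraries were made by a service company, per the labels' protocols. The sources used here do not give the library kit, strandedness or treatment of multi-mapping reads, so overlapping and antisense genes cannot be told apart. Per the submitters' processing notes, HISAT2 2.0.5 aligned the reads and featureCounts 1.5.0-p3 counted them, with build GRCh38 named. The gene identifiers are mouse, 99.9% of them are in GENCODE M21, and coordinates are given as GRCm38. The deposited counts are raw whole numbers per gene, and 0 rows named no gene. The authors' deposited table also holds normalized signal means, log2 fold changes and p-values of ALP against control, which were not used. The other 4 per-sample columns, of FPKM, enter no result given here.

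CPM is the count per 1000000 counts of the library. TPM is the count over the deposited gene_length, scaled to 1000000 over all genes. That length equals the union of GENCODE M21 exons in 98.0% of matched genes. Ratios used TMM scaling in edgeR 4.0.16 under R 4.3.3, with exact binomial 95% intervals, and edgeR's estimateDisp gave the biological coefficient of variation after filterByExpr (minimum count 10, minimum total 15). DESeq2 1.42.0 supplied alternative size factors. Calculations ran in Python 3.11.15, and exon overlaps came from bedtools 2.31.1. Windows of 50 bases of each gene's protein-coding transcripts, or of all transcripts for other genes, were searched on either strand in the transcripts of all other genes. No test was made, since the group is compared with nothing. The ratio and spread calculations were tested on simulated data.

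The members and the 32 gene lists (826 entries, all matched, 6 of them through the RefSeq gene table of GRCm38.p6) were chosen with earlier results of these data known. Genes were named by rule. The rule took the 25 highest nuclear genes and 10 highest nuclear non-coding genes of at least 300 bases by mean TPM. It also took up to 5 of each list and a fixed set of 40 genes. Last came the 6 highest and 6 lowest ratios among protein-coding genes at 5 CPM or more. Gapdh, Rpl24, Rps10, Rpl17, Krt24, Cd3e, Ptprc, Itgax, Il6, Il19, Il20, Gm23935, the other mitochondrial mRNAs and the copies given beside a gene were named after their values were seen. Some genes that the rule names are not reported here.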

Additional observations from a re-analysis of the deposited data

How the results depend on the processing

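The median level of detected protein-coding genes, 23.1 TPM, was 25.8 with TPM taken over protein-coding genes only and 25.4 with the length of the longest protein-coding transcript, an alternative chosen after seeing the data. It was 23.2 without A and 22.8 without B. Of 209 named genes, 19 moved over 1.5 times with that length, 16 upward and 3 downward. Besides Flg and Itga6, the mean of Dcn became 14.9 instead of 5.92 TPM, that of Dct 17.38 instead of 8.58, that of Eno1 1382 instead of 689 and that of Fgfr2 249.9 instead of 138, while Fth1 became 1249 instead of 2849. Of the 32 list medians, 7 moved by more than the spread between libraries without A and 7 without B. Leaving out 1 of 2 libraries returns the value of the other, and the spread comes from the same 2 values. These counts therefore do not measure how stable a median is. The share of counts in the first 100 genes, 22.8%, was 21.7% without mitochondrial genes and 37.1% when taken of TPM, and ran from 22.7% to 22.9% with a library left out. The protein-coding share of counts, 98.3%, was 89.7% when taken of TPM. Genes at least 1.5-fold apart numbered 128, against 673 at a mean of 1 CPM or more, 8505 with no filter on low counts and 13 at 2-fold. With either other scaling there were 120. The number of detected genes, 13544, stayed between 12518 and 14907 under every alternative run. Levels from the deposited FPKM were calculated but are not reported, since only 1 measure per library was kept. No paired analysis was possible because only the control group was described and its values come from no test. Genes under 1 TPM are not called absent at this depth.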
